A study of Homo sapiens with 12 samples.

Results

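The 54 genes described here encode core splicing factors and were chosen by gene symbol from the 59251 genes of the count table. They comprised 11 SR proteins, 20 heterogeneous nuclear ribonucleoproteins (hnRNPs), 11 genes of the SF3 complexes and U2AF, and 12 Sm and snRNP proteins. RNA-Seq was carried out on HL60 cells (HL-60 in the labels), a line grown from human myeloid leukemia, that were cultured in the same medium and left without drug or exposed to 1 µM all-trans retinoic acid (ATRA), 1 µM palbociclib (CDK4/6i) or both (CDK4/6i+ATRA) over 48 h. Each of the 4 groups had 3 libraries, labelled as biological replicates. The labels do not say whether these were separate cultures, while the study describes an enrichment analysis of its RNA-Seq data as resting on independent experiments, and p-values measure the spread between these libraries. ATRA drives myeloid cells to mature, and palbociclib blocks the kinases that take cells out of G1 phase. All groups come from 1 cell line at 1 dose and 1 time.

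Introns are removed from pre-mRNA by the spliceosome, which is built from small nuclear ribonucleoproteins (snRNPs), each an RNA with a ring of Sm proteins and its own partner proteins. SR proteins bind exons and recruit the machinery, hnRNPs bind pre-mRNA and often act against exon inclusion, and U2AF and the SF3 complexes mark the end of the intron and its branch site. Several of these factors, among them SF3B1, SRSF2 and U2AF1, are known as targets of mutation in myeloid neoplasms.

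Total counts ran from 12230923 to 18679544 per library, with the lowest median, 13103560, in CDK4/6i+ATRA-treated cells. Values are given as CPM, the count of a gene scaled to a common library total, with TMM factors for the make-up of each library, and the edgeR model of the 4 groups was fitted to the 13318 genes that passed its expression filter. A gene was called at an adjusted p under 0.05 in the quasi-likelihood F test of edgeR, adjusted by Benjamini-Hochberg over all 13318 genes. Among markers of myeloid cells, CD33 stood between 77.9 and 118.5 CPM and SPI1 between 302 and 855 CPM as group means, and MPO, the myeloperoxidase of promyelocytes, fell from 6517 CPM in non-treated cells to 28.0 CPM under CDK4/6i+ATRA. The granule protein genes ELANE, PRTN3 and AZU1 are listed at 0, and each is also placed on an alternate contig in the table. MS4A1, HBB and EPCAM, markers of other cell types, had no count in any library, whereas the T cell gene CD3E reached 59 counts.

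Of the 54 genes, 52 passed the filter. HNRNPH2 had 1 to 7 counts per library, and a readthrough gene that shares 95.7% of its exon bases is listed at 0. U2AF1, which reads the AG at the end of the intron, had 3 to 17 counts, and its near-identical copy in this genome build, LOC102724594 on chromosome 21, had 5 to 12, so the level of U2AF1 cannot be taken from these counts. HNRNPH1, HNRNPL and HNRNPR are each counted on a primary chromosome together with an alternate contig. The exons of 14 of the 52 tested genes overlapped another gene that had counts, and the other 38 are called genes without exon overlap here. HNRNPUL2 is among the 38, although a readthrough gene listed at 0 shares 45.9% of its exon bases. The library kit was directional, but the sources used here do not say whether strand was used in counting, so reads of overlapping genes on opposite strands cannot be told apart.

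In non-treated cells the highest level per length of merged exons was that of HNRNPA1, an hnRNP that represses exon use, at 621 ± 14.9 CPM per kb (SD, n = 3). HNRNPA2B1, its close relative, followed at 500.5 ± 14.4 CPM per kb and SNRPB, the Sm protein B, at 469 ± 17.3 CPM per kb. HNRNPK, HNRNPD and SNRPD2 came next at 322, 317 and 313 CPM per kb, and neighbours among these last genes differed by less than the larger of their SDs. The lowest tested genes were SRSF8 at 14.3 and SRSF4 at 13.8 CPM per kb, which also lay within 1 SD of each other. By family the median level of the tested genes was 149 CPM per kb for the hnRNPs, 127 for SF3 and U2AF, 122 for the Sm and snRNP proteins and 43.4 for the SR proteins. These lengths merge all annotated exons, so a gene with long unused exons has a lower level on this scale.

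The 54 genes together took 2.37% ± 0.040 (SD, n = 3) of all counts in non-treated cells, 2.08% ± 0.027 under ATRA, 1.69% ± 0.0021 under CDK4/6i and 1.10% ± 0.025 under CDK4/6i+ATRA. The 4 groups did not overlap, and the order was the same for the summed share of each of the 4 families. In bulk samples, fewer cells of a type and less RNA of these genes per cell cannot be told apart. On the TMM scale the summed level went from 22850 ± 588 CPM in non-treated cells to 12700 ± 127 CPM under CDK4/6i+ATRA.

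ATRA alone lowered 41 of the 52 tested genes and raised 3, when 35.5% of all tested genes were called lower and 32.1% higher. CDK4/6i alone lowered 46 and raised 4, against 27.9% and 28.3% of all tested genes. The 4 became 1 with no filter or without non-treated replicate 3, and 2 without CDK4/6i replicate 1. CDK4/6i+ATRA lowered 47 and raised 3, against 40.7% and 41.0%. The median log2 fold change of the 52 genes was -0.23 under ATRA, -0.49 under CDK4/6i and -0.77 under CDK4/6i+ATRA, and that of all tested genes was -0.028, 0.020 and 0.018. The 3 comparisons share the non-treated libraries. By estimate, 43 genes were lower under CDK4/6i than under ATRA, a difference between the single drugs that was not tested. The matching share of all tested genes was not counted, so this count is not read as particular to these genes.

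A fall in all 3 comparisons was called for 37 genes (71.2%), against 15.1% of all tested genes. A fall of at least 2-fold under CDK4/6i+ATRA was called for 21 genes (40.4%), against 23.3%. In 38 genes (73.1%) the CDK4/6i+ATRA libraries lay below every library of the other groups, against 25.7% of all tested genes. In 1 gene, SRSF5, they lay above every other library, against 28.3%. The members that rose under CDK4/6i+ATRA were SRSF5, HNRNPLL and SNRPB2, and those not called were SRSF9 and SF3B4. Scaled by library size alone, the median log2 fold change of all tested genes under CDK4/6i+ATRA moved from 0.018 to -0.25, and that of the 52 genes to -1.03. The difference between these medians was -0.79 under both scalings. Scaling shifts all genes by nearly the same amount, so this difference is no test of the scaling. The direction of SNRPB2 turned to -0.14 and that of SF3B4 from 0.098 to -0.17.

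**Figure D1:**
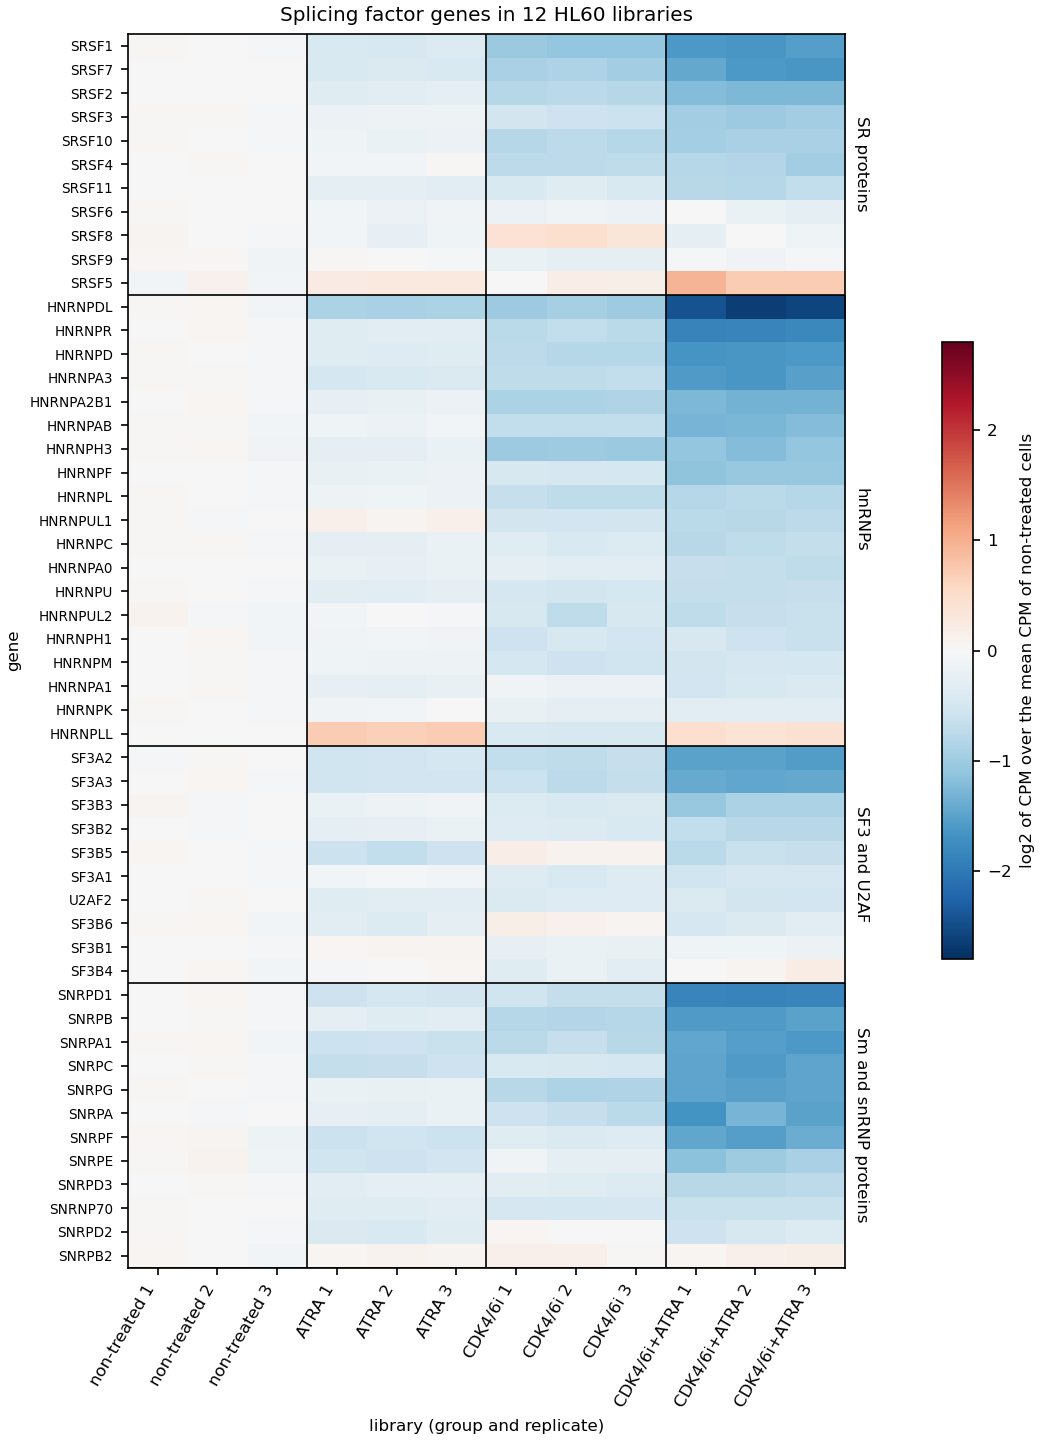
The 52 tested splicing factor genes (rows, grouped by family and ordered by the CDK4/6i+ATRA effect) in the 12 libraries (columns), coloured by the log2 of CPM over the mean CPM of non-treated cells. Blue deepens from ATRA through CDK4/6i to CDK4/6i+ATRA in most rows, whereas SRSF5 and HNRNPLL are red in the CDK4/6i+ATRA libraries.

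Among the 11 SR proteins, 8 fell and 1 rose under ATRA, 9 fell and 1 rose under CDK4/6i, and 9 fell and 1 rose under CDK4/6i+ATRA, where the median log2 fold change was -0.86. SRSF1, the founding member of the family (chr17:57989038-58007246, minus strand, hg38), stood at 758, 751 and 713 CPM in non-treated cells, 551, 543 and 567 under ATRA, 359, 349 and 352 under CDK4/6i and 245, 241 and 254 under CDK4/6i+ATRA. The 4 groups did not overlap and stepped down in that order, and the log2 fold change under CDK4/6i+ATRA was -1.59 ± 0.039 (SE), edgeR's adjusted p 8.9e-37, a 3.0-fold lower level. SRSF7, which carries a zinc knuckle and links splicing to mRNA export (chr2:38743599-38751494, minus strand), stood at 284, 286 and 286 CPM in non-treated cells, 213, 215 and 212 under ATRA, 152, 156 and 145 under CDK4/6i and 106, 94.0 and 91.8 under CDK4/6i+ATRA. It followed the same order without overlap, with a log2 fold change of -1.56 ± 0.043 (SE), edgeR's adjusted p 1.1e-34.

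SRSF2 binds exonic enhancers (chr17:76734115-76737411, minus strand) and stood at 372, 371 and 371 CPM in non-treated cells, 295, 299 and 306 under ATRA, 215, 221 and 213 under CDK4/6i and 161, 156 and 156 under CDK4/6i+ATRA. Its groups again did not overlap, and the log2 fold change under CDK4/6i+ATRA was -1.24 ± 0.037 (SE), edgeR's adjusted p 5.2e-33. MFSD11 lies on the other strand over 9.9% of the SRSF2 exon bases, with 2769 counts in all libraries beside the 50921 of SRSF2. SRSF3 (-0.98), SRSF10 (-0.93), SRSF4 (-0.86) and SRSF11 (-0.76), given as log2 fold changes under CDK4/6i+ATRA, also fell, and SRSF6 had small log2 fold changes of similar size under ATRA (-0.11), CDK4/6i (-0.15) and both (-0.15). Its call under ATRA was lost in 7 alternatives, among them those without non-treated replicate 1 (-0.10) or ATRA replicate 2 (-0.090), and its call under CDK4/6i+ATRA without CDK4/6i+ATRA replicate 3 (-0.092).

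SRSF5 went the other way. This SR protein (chr14:69767142-69772005, plus strand) stood at 75.4, 86.5 and 75.5 CPM in non-treated cells, 92.9, 95.0 and 95.6 under ATRA, 79.5, 89.9 and 89.0 under CDK4/6i and 152, 130.3 and 130.1 under CDK4/6i+ATRA. The CDK4/6i+ATRA libraries were the highest, the first of them above the other pair, while CDK4/6i and non-treated libraries overlapped. The log2 fold change was 0.80 ± 0.054 (SE), edgeR's adjusted p 1.3e-18 under CDK4/6i+ATRA and 0.26 ± 0.054 (SE), edgeR's adjusted p 4.1e-05 under ATRA. With CDK4/6i alone it was 0.12 ± 0.054 (SE), edgeR's adjusted p 0.0538, and it was called in that comparison in 7 alternatives, which are leaving out non-treated replicate 2 (0.19), CDK4/6i replicate 1 (0.17), CDK4/6i+ATRA replicate 1 (0.12) or CDK4/6i+ATRA replicate 3 (0.12), the size factors of DESeq2 (0.13), a minimum of 10 counts (0.12) and only the groups compared (0.12).

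SRSF9, which shares domains with SRSF1 (chr12:120461672-120469748, minus strand), stood at 115, 114 and 103 CPM in non-treated cells, 114, 109 and 108 under ATRA, 97.1, 91.5 and 93.2 under CDK4/6i and 109, 104 and 108 under CDK4/6i+ATRA. CDK4/6i libraries were the lowest, with a log2 fold change of -0.23 ± 0.045 (SE), edgeR's adjusted p 1.3e-05, and CDK4/6i+ATRA overlapped the non-treated and ATRA libraries (-0.046 ± 0.046 (SE), not called), although the fall was called without non-treated replicate 3 (-0.11), with no filter (-0.16) and when scaled by library size alone (-0.31). GATC on the opposite strand covers 42.6% of the SRSF9 exon bases, with 6737 counts beside 19844 of SRSF9, and its part in these values was not tested. SRSF8, encoded by a single exon, was highest under CDK4/6i, at 82.7, 84.9 and 78.8 CPM against 65.3, 61.6 and 59.6 CPM in non-treated cells. Its log2 fold change was 0.40 ± 0.054 (SE), edgeR's adjusted p 9e-09 under CDK4/6i, whereas it was -0.14 under ATRA and -0.13 under CDK4/6i+ATRA. Each of these falls lost its call in 7 alternatives, the first without non-treated replicate 1 (-0.10) or ATRA replicate 2 (-0.091) and the second without non-treated replicate 1 (-0.10), CDK4/6i+ATRA replicate 1 (-0.064) or CDK4/6i+ATRA replicate 3 (-0.13), among others.

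**Figure D2:**
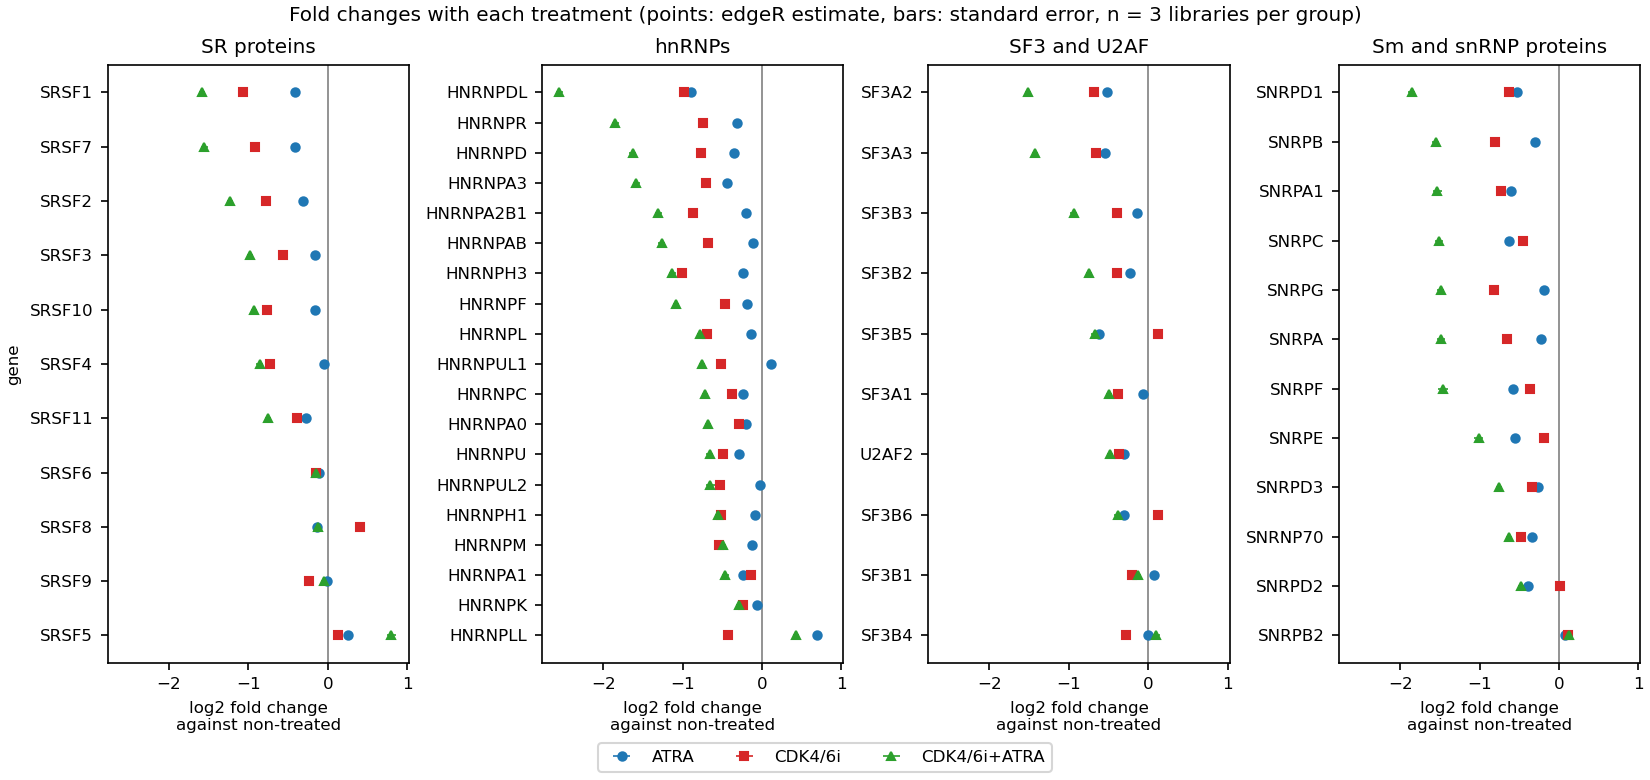
Log2 fold change against non-treated cells (x axis) of each tested gene (y axis) in the 4 families, under ATRA as blue circles, CDK4/6i as red squares and CDK4/6i+ATRA as green triangles, and bars for the standard error (n = 3 libraries per group). Most green triangles lie left of the other symbols, down to -2.55 for HNRNPDL, and right of 0 lie those of SRSF5, HNRNPLL, SF3B4 and SNRPB2, the last pair of which turn below 0 when scaled by library size alone.

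Of the 19 hnRNPs tested, 15 fell and 2 rose under ATRA, all 19 fell under CDK4/6i, and 18 fell and 1 rose under CDK4/6i+ATRA, with a median log2 fold change of -0.75 for CDK4/6i+ATRA. HNRNPDL showed the lowest log2 fold change of all 52 genes. It encodes a relative of AUF1 that binds RNA and regulates its own splicing (chr4:82422564-82430462, minus strand). The gene stood at 356, 365 and 330.5 CPM in non-treated cells, 189, 187 and 190.3 under ATRA, 172, 183 and 176 under CDK4/6i and 64.8, 56.1 and 58.7 under CDK4/6i+ATRA. ATRA and CDK4/6i each brought it to a similar level, with log2 fold changes of -0.89 ± 0.04 (SE) and -0.99 ± 0.04 (SE), and with both drugs it was -2.55 ± 0.047 (SE), edgeR's adjusted p 3.1e-42, a 5.86-fold lower level.

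HNRNPD, which encodes AUF1 and binds AU-rich elements of mRNAs, lies 48.6 kb from HNRNPDL on the same strand of chromosome 4 (chr4:82352498-82373991, minus strand). It stood at 999.5, 986 and 935 CPM in non-treated cells, 764, 757 and 769 under ATRA, 586, 562 and 559 under CDK4/6i and 309.7, 314 and 321 under CDK4/6i+ATRA. The groups did not overlap, and the log2 fold change under CDK4/6i+ATRA was -1.63 ± 0.04 (SE), edgeR's adjusted p 6.9e-37. HNRNPR, an RNA-binding protein of mRNA transport and stability (chr1:23304688-23344284, minus strand), stood at 427, 443 and 409 CPM in non-treated cells, 335, 343 and 350.1 under ATRA, 251, 263 and 252 under CDK4/6i and 116, 118 and 122 under CDK4/6i+ATRA. It too stepped down without overlap, to -1.85 ± 0.041 (SE), edgeR's adjusted p 5.6e-39 under CDK4/6i+ATRA.

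HNRNPLL was the exception among the hnRNPs. It is known for the alternative splicing of CD45 in lymphocytes, and it lies 140.7 kb from SRSF7 on chromosome 2, on the same strand (chr2:38561969-38602928, minus strand). HNRNPLL stood at 111, 111 and 109 CPM in non-treated cells, 180.1, 174 and 179 under ATRA, 82.5, 81.2 and 81.0 under CDK4/6i and 153, 143 and 148 under CDK4/6i+ATRA. The 4 groups did not overlap, under ATRA the highest and CDK4/6i the lowest. The log2 fold change was 0.69 ± 0.039 (SE), edgeR's adjusted p 1.7e-21 under ATRA, -0.43 ± 0.041 (SE), edgeR's adjusted p 7.8e-13 under CDK4/6i and 0.43 ± 0.041 (SE), edgeR's adjusted p 1.8e-13 with both, so HNRNPLL and its neighbour SRSF7 changed in opposite directions under ATRA and under CDK4/6i+ATRA.

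HNRNPK, which binds C-rich RNA and DNA (chr9:83968083-83980615, minus strand), had the smallest change of the family under CDK4/6i+ATRA. It stood at 999.9, 991 and 944 CPM in non-treated cells, 913, 925 and 966 under ATRA, 841, 820.3 and 823 under CDK4/6i and 796, 803 and 802 under CDK4/6i+ATRA. Only non-treated and ATRA libraries overlapped, and the log2 fold change under CDK4/6i+ATRA was -0.29 ± 0.039 (SE), edgeR's adjusted p 5.1e-09. HNRNPA1, the most abundant member per length, had a log2 fold change of -0.46 ± 0.043 (SE) under CDK4/6i+ATRA, and its close relatives HNRNPA3 (-1.58 ± 0.041 (SE)) and HNRNPA2B1 (-1.30 ± 0.042 (SE)) had lower estimates. These genes have many processed pseudogenes, and the counting of reads that match several places is not given in the sources used here. The other falling hnRNPs ranged from -1.26 for HNRNPAB to -0.49 for HNRNPM.

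The starts of 5 genes are shown to set the promoters of 2 pairs beside that of SRSF5, the member with the largest rise. HNRNPDL and HNRNPD fell together. HNRNPLL and SRSF7 went apart under ATRA and CDK4/6i+ATRA, whereas both fell under CDK4/6i. Each window holds 250 bases before and 50 bases after the start, from RefSeq on GRCh38.p14, written 5′ to 3′ on the gene's strand. Capitals mark CACGTG, the E-box letters bound by MYC and MAX, and CCGGAAG or its reverse complement, letters bound by ETS factors.
HNRNPDL, chr4:82430413-82430712, minus strand: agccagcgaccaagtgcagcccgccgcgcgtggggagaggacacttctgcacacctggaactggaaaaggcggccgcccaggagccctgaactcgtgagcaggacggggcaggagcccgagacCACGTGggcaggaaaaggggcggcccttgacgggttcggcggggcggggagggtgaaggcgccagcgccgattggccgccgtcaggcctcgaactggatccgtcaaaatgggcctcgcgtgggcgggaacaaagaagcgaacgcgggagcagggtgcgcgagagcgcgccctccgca
HNRNPD, chr4:82373942-82374241, minus strand: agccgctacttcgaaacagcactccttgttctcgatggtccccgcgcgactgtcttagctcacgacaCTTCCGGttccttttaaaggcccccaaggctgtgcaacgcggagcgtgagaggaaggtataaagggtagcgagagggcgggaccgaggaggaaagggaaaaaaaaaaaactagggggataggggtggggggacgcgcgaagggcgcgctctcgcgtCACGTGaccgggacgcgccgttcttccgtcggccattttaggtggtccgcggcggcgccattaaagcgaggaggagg
HNRNPLL, chr2:38602879-38603178, minus strand: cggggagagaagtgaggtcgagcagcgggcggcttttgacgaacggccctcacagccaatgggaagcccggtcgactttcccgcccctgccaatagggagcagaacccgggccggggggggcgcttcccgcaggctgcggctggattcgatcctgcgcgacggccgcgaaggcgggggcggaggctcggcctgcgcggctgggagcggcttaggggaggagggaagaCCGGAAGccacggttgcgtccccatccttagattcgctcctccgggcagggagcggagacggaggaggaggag
SRSF7, chr2:38751445-38751744, minus strand: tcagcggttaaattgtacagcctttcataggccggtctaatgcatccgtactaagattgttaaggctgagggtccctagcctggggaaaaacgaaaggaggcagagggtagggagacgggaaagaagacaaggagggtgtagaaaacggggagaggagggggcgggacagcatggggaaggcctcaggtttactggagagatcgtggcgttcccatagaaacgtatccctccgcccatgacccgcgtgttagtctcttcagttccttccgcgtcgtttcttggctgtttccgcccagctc
SRSF5, chr14:69766892-69767191, plus strand: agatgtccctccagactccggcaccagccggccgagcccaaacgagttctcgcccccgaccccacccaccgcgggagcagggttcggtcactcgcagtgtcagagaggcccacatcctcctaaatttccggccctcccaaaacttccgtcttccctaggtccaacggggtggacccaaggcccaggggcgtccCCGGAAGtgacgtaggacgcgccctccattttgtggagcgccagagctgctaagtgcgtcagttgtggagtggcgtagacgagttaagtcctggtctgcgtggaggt
The E-box letters were found in the windows of HNRNPDL and HNRNPD, and the ETS letters in those of HNRNPD, HNRNPLL and SRSF5. The SRSF7 window held neither. RefSeq windows were matched for 50 of the 54 genes; SRSF2, HNRNPA1, SF3B3 and SNRPD1 had none. Of the 48 tested genes with a window, CACGTG was in 7 (14.6%) and CCGGAAG on either strand in 19 (39.6%), against 10.4% and 20.1% of the 9788 tested genes with a window of the same length. The CCAAT letters were in 20 (41.7%) and the GC box GGGCGG in 30 (62.5%), against 37.1% and 68.2%, and AGGTCA, the half-site of nuclear receptors, in 4 (8.33%) against 10.1%, all on either strand. These counts describe letters only, and no test was made of them.

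For SF3 and U2AF, 7 of the 10 tested genes fell under ATRA and none rose, 8 fell and 2 rose under CDK4/6i, and 9 fell under CDK4/6i+ATRA, with a median log2 fold change of -0.59. SF3A2 and SF3A3, subunits of the SF3a trimer of the U2 snRNP, fell the most. SF3A2 (chr19:2236824-2248655, plus strand) stood at 208, 217 and 211 CPM in non-treated cells, 144, 147 and 151 under ATRA, 130.5, 129 and 136 under CDK4/6i and 75.3, 74.9 and 72.1 under CDK4/6i+ATRA. SF3A3 (chr1:37956975-37990022, minus strand) stood at 396, 411 and 387 CPM in non-treated cells, 269.7, 274 and 273 under ATRA, 264, 240.2 and 249.9 under CDK4/6i and 151, 146 and 147 under CDK4/6i+ATRA. Neither gene had overlapping groups, and the log2 fold changes under CDK4/6i+ATRA were -1.51 ± 0.043 (SE), edgeR's adjusted p 2e-34 for SF3A2 and -1.43 ± 0.04 (SE), edgeR's adjusted p 1.6e-34 for SF3A3. The third subunit, SF3A1, had -0.50 ± 0.037 (SE).

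SF3B3, a scaffold of the SF3b complex (chr16:70523816-70577668, plus strand), stood at 395, 360.4 and 375 CPM in non-treated cells, 329.7, 339.8 and 354 under ATRA, 290.3, 282 and 285 under CDK4/6i and 180.2, 204 and 204 under CDK4/6i+ATRA. Its groups did not overlap, and the log2 fold change under CDK4/6i+ATRA was -0.94 ± 0.042 (SE), edgeR's adjusted p 1e-25. SF3B1, the subunit that clamps the branch site, had small log2 fold changes of 0.067 ± 0.036 (SE) under ATRA (not called), -0.21 ± 0.036 (SE) under CDK4/6i and -0.13 ± 0.037 (SE) with both. Under ATRA it was called higher in 5 alternatives, with the size factors (0.099) or the test (0.099) of DESeq2, library size alone (0.11), a minimum of 10 counts (0.093) and only the groups compared (0.12). U2AF2, which binds the pyrimidine tract (chr19:55655035-55674716, plus strand), stood at 354, 362 and 354 CPM in non-treated cells, 283, 288 and 293 under ATRA, 271, 279 and 277 under CDK4/6i and 269, 252 and 248 under CDK4/6i+ATRA. The groups did not overlap, although the treated ones were close to each other, and the log2 fold change under CDK4/6i+ATRA was -0.48 ± 0.037 (SE), edgeR's adjusted p 2.2e-16.

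SF3B4, which contacts pre-mRNA near the branch site (chr1:149923317-149927803, minus strand), stood at 140.0, 143 and 132 CPM in non-treated cells, 134, 138 and 144 under ATRA, 109, 121 and 112 under CDK4/6i and 137, 145 and 161 under CDK4/6i+ATRA. CDK4/6i libraries were the lowest (-0.28 ± 0.046 (SE), edgeR's adjusted p 8.4e-07), and the other groups overlapped. The log2 fold change under CDK4/6i+ATRA was 0.098 ± 0.047 (SE), edgeR's adjusted p 0.0537, and it was called without non-treated replicate 2 (0.11) or CDK4/6i+ATRA replicate 1 (0.15), with the size factors of DESeq2 (0.12) and with a minimum of 10 counts (0.13), and turned to -0.17 when scaled by library size alone. The small subunits SF3B5 and SF3B6 fell under ATRA (-0.62 and -0.31 on the log2 scale) and rose under CDK4/6i (both 0.12), and with both drugs stood at -0.67 and -0.38. Neither rise was called with no filter (both 0.12), without non-treated replicate 3 (0.095 and 0.088) or without CDK4/6i replicate 1 (0.085 and 0.10).

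**Figure D3:**
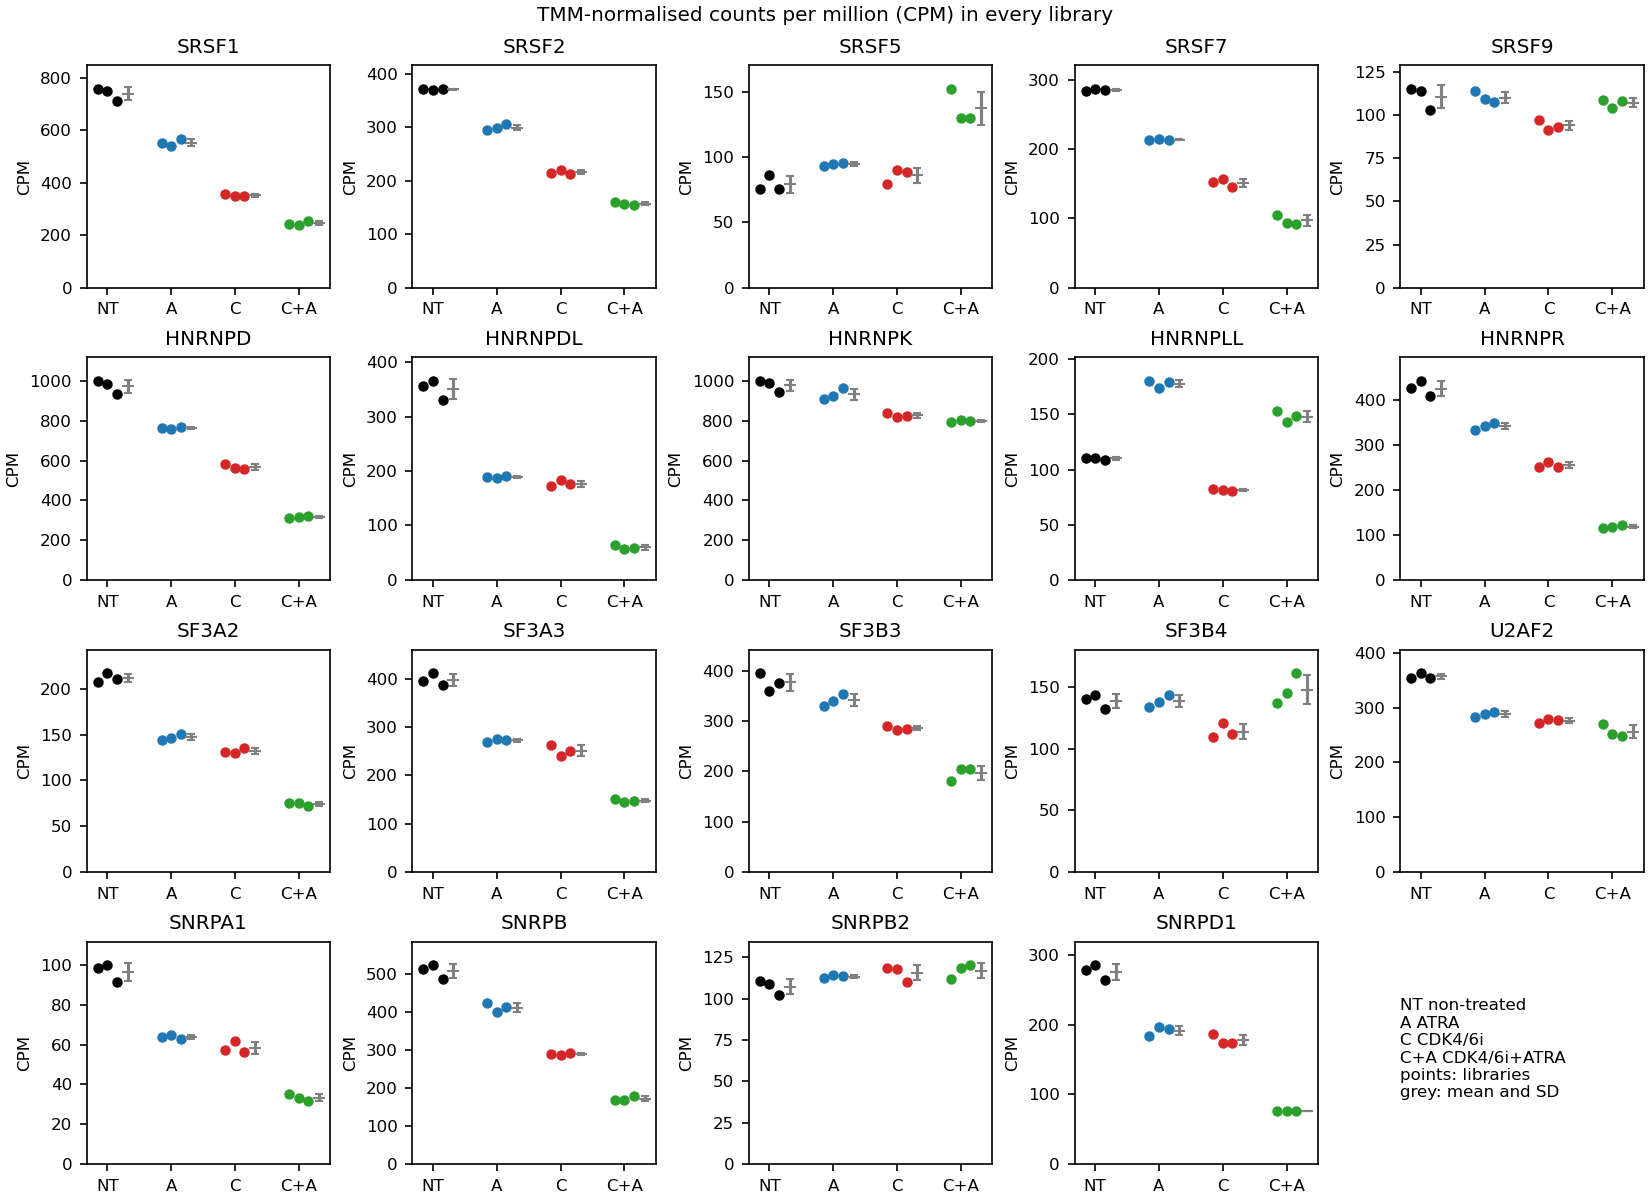
TMM-normalised CPM (y axis, from 0) of 19 genes in every library, by group on the x axis, with non-treated cells in black, ATRA in blue, CDK4/6i in red and CDK4/6i+ATRA in green, and the mean with its SD (n = 3) in grey. The green points are the lowest in 14 panels, such as HNRNPR at 116 to 122 CPM, and the highest in that of SRSF5, at 130.1 to 152 CPM.

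Among the 12 Sm and snRNP proteins, 11 fell under ATRA and none rose, 10 fell and 1 rose under CDK4/6i, and 11 fell and 1 rose under CDK4/6i+ATRA. Their median log2 fold change under CDK4/6i+ATRA, -1.47, was the lowest of the 4 families by value; differences between families were not tested. All 7 proteins of the Sm ring fell under CDK4/6i+ATRA and under ATRA, and 6 fell under CDK4/6i. SNRPD1, a ring protein (chr18:21612314-21633520, plus strand), stood at 278, 285 and 264 CPM in non-treated cells, 184, 196 and 194 under ATRA, 186, 174 and 174 under CDK4/6i and 76.6, 75.7 and 76.8 under CDK4/6i+ATRA. ATRA and CDK4/6i overlapped in part, and the CDK4/6i+ATRA libraries were far below every other, at a log2 fold change of -1.85 ± 0.044 (SE), edgeR's adjusted p 1.7e-37.

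SNRPB encodes the ring proteins B and B′ (chr20:2461642-2470789, minus strand) and stood at 514, 523 and 487 CPM in non-treated cells, 423, 399.6 and 413 under ATRA, 291, 286 and 292 under CDK4/6i and 169, 169 and 180.4 under CDK4/6i+ATRA. The groups did not overlap, and the log2 fold change under CDK4/6i+ATRA was -1.55 ± 0.04 (SE), edgeR's adjusted p 3.2e-36. The ring did not change evenly by estimate. With CDK4/6i+ATRA, SNRPG had -1.49 ± 0.044 (SE) and SNRPF -1.46 ± 0.058 (SE), SNRPE -1.01 ± 0.056 (SE), SNRPD3 -0.75 ± 0.04 (SE) and SNRPD2 -0.47 ± 0.041 (SE). SNRPD2 was at 303, 295 and 291 CPM in non-treated cells and 307, 295 and 299 CPM under CDK4/6i, and its log2 fold change under CDK4/6i was 0.019 ± 0.039 (SE), edgeR's adjusted p 0.71. Exons of SNRPD3 overlap GUCD1 on the opposite strand over 6.4% of their bases, with 20010 counts beside 31362.

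The proteins particular to U1 and U2 snRNPs differed among themselves. SNRPA1, the A′ protein of U2 (chr15:101281510-101295248, minus strand), stood at 98.3, 99.6 and 91.1 CPM in non-treated cells, 63.7, 64.5 and 62.5 under ATRA, 57.1, 61.8 and 56.2 under CDK4/6i and 35.1, 33.1 and 31.7 under CDK4/6i+ATRA. Its groups did not overlap, and the log2 fold change under CDK4/6i+ATRA was -1.53 ± 0.058 (SE), edgeR's adjusted p 5.8e-29. SNRPB2, its partner in the U2 snRNP (chr20:16730026-16742564, plus strand), stood at 111, 109 and 102 CPM in non-treated cells, 112, 114 and 114 under ATRA, 119, 118 and 110.3 under CDK4/6i and 112, 119 and 120.1 under CDK4/6i+ATRA. The CDK4/6i+ATRA libraries were above the non-treated ones by a narrow margin and overlapped both single-drug groups, at 0.12 ± 0.045 (SE), edgeR's adjusted p 0.01, which turned to -0.14 when scaled by library size alone. The rise was not called with no filter (0.015), without non-treated replicate 3 (0.082), without CDK4/6i+ATRA replicate 2 (0.11) or without CDK4/6i+ATRA replicate 3 (0.10), given as log2 fold changes. Its rise under CDK4/6i (0.11 ± 0.043 (SE)) was not called without non-treated replicate 3 (0.077), CDK4/6i replicate 1 (0.085) or CDK4/6i replicate 2 (0.096), or with no filter (0.10). Under ATRA, SNRPB2 was not called (0.080) but was called higher in 5 alternatives. These were the size factors (0.11) or the test (0.11) of DESeq2, library size alone (0.12), a minimum of 10 counts (0.11) and only the groups compared (0.13). Of the U1 proteins, SNRPC (-1.51 ± 0.051 (SE)) and SNRPA (-1.48 ± 0.055 (SE)) fell, as did SNRNP70 (-0.63 ± 0.037 (SE)).

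To ask what each drug added to the other, CDK4/6i+ATRA was set against each drug alone. Against CDK4/6i alone, 42 of the 52 genes were lower and 5 higher, when 39.5% of all tested genes were lower and 39.1% higher. Against ATRA alone, 43 were lower and 1 higher, when 32.8% and 36.9% were. SRSF5 was higher in both, with log2 fold changes of 0.68 ± 0.053 (SE) against CDK4/6i and 0.54 ± 0.053 (SE) against ATRA. HNRNPLL differed by 0.86 ± 0.042 (SE) from CDK4/6i and by -0.27 ± 0.039 (SE) from ATRA. SRSF9 (0.19 ± 0.047 (SE)), SF3B4 (0.38 ± 0.048 (SE)) and SF3B1 (0.08 ± 0.037 (SE)) were the other genes higher than under CDK4/6i, and scaled by library size alone SRSF9 turned to -0.09 and SF3B1 to -0.20. The call of SF3B1 was also lost without any 1 library except CDK4/6i+ATRA replicate 3 (0.064 to 0.077). It was lost as well with no filter (-0.022) and with the replicate number as a block (0.080). Genes not called against CDK4/6i were SRSF6, HNRNPH1, HNRNPK, HNRNPM and SNRPB2, and 8 genes were not called against ATRA, among them SF3B5, SF3B6 and SNRPD2. Scaled by library size alone, all of these genes were called lower, so that 48 genes were lower and 3 higher than under CDK4/6i, against 49.2% and 28.6% of all tested genes, and 51 lower and 1 higher than under ATRA, against 48.1% and 22.2%.

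The interaction asks whether the effect of both drugs equals the sum of the single-drug effects on the log2 scale, where effects that multiply add up. It was called negative for 27 genes (51.9%), against 27.0% of all tested genes, and positive for 7 (13.5%), against 24.5%. All 27 genes with a negative interaction fell under CDK4/6i+ATRA, and for 18 genes no departure was called. Scaled by library size alone, the median interaction of all tested genes moved from -0.022 to -0.34, and 48 of the 52 genes were called negative and none positive, against 45.5% and 10.3% of all tested genes. The median of the 52 genes less that of all tested genes was -0.13 under both scalings, which is again fixed by the common shift and does not test the scaling.

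HNRNPR had the lowest interaction, -0.79 ± 0.055 (SE), edgeR's adjusted p 2.1e-17, followed by SNRPD1 at -0.70 ± 0.059 (SE), edgeR's adjusted p 2.6e-14 and HNRNPDL at -0.67 ± 0.063 (SE), edgeR's adjusted p 6.7e-13. HNRNPR was lowered by 0.31 under ATRA and by 0.74 under CDK4/6i on the log2 scale, and by 1.85 with both. By family, a negative interaction was called for 9 of 12 Sm and snRNP proteins, 9 of 19 hnRNPs, 5 of 10 in SF3 and U2AF and 4 of 11 SR proteins. When scaled by library size alone, these counts were 12, 19, 8 and 9. SRSF1, which fell with each treatment, had an interaction of -0.099 ± 0.054 (SE), edgeR's adjusted p 0.124, which was called negative with DESeq2 (-0.12), with no filter (-0.18) and when scaled by library size alone (-0.42).

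Positive interactions were led by SRSF5 (0.42 ± 0.076 (SE), edgeR's adjusted p 6.9e-06) and SF3B4 (0.38 ± 0.066 (SE), edgeR's adjusted p 3.2e-06), and neither was called when scaled by library size alone (0.10 and 0.059). U2AF2 (0.20 ± 0.052 (SE), edgeR's adjusted p 0.00101), whose fall with both drugs was smaller than the sum, turned to -0.12 when scaled by library size alone. SRSF9 (0.19, not called without non-treated replicate 1), SNRNP70 (0.19), HNRNPM (0.18) and HNRNPLL (0.17) were the other positive calls, and under library size alone they turned to -0.12, -0.13, -0.14 and -0.15. With no filter, U2AF2 (0.12), SRSF9 (0.11), SNRNP70 (0.10), HNRNPM (0.090) and HNRNPLL (0.081) were not called.

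**Figure D4:**
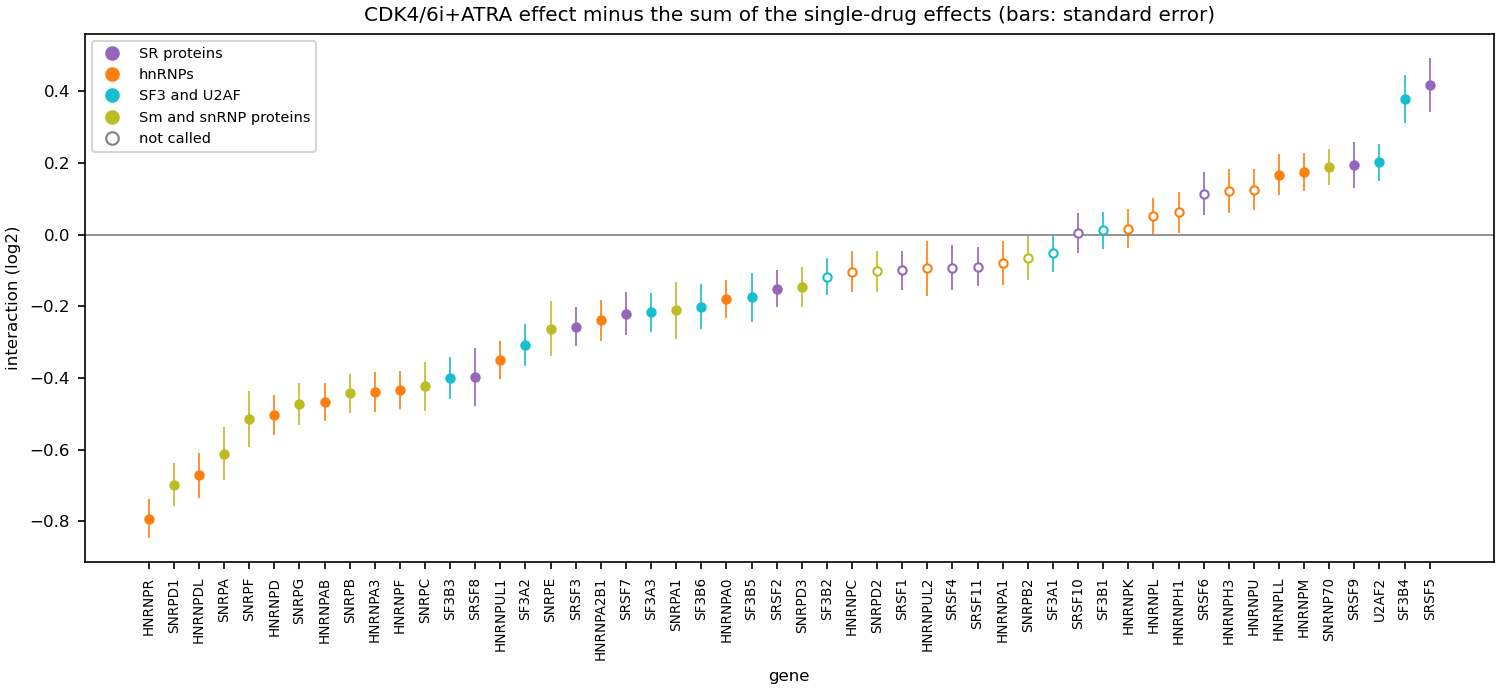
Interaction (y axis, log2 units: the CDK4/6i+ATRA effect minus the sum of the single-drug effects) of the 52 tested genes (x axis), coloured by family, with bars for the standard error, filled points where it was called and open points where it was not. The values run from -0.79 for HNRNPR to 0.42 for SRSF5, with 27 filled points below 0 and 7 above, or 48 and none when scaled by library size alone.

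HNRNPUL1, an RNA-binding protein that acts in transcription and the DNA damage response, had single-drug calls of opposite sign and was named after its values were seen. It stood at 634, 611 and 619.6 CPM in non-treated cells, 681, 652 and 688 under ATRA, 438, 427 and 436 under CDK4/6i and 370.0, 363 and 375 under CDK4/6i+ATRA. ATRA libraries were the highest and CDK4/6i+ATRA libraries the lowest, without overlap of any groups. The log2 fold change was 0.12 ± 0.037 (SE), edgeR's adjusted p 0.00472 under ATRA and -0.52 ± 0.037 (SE), edgeR's adjusted p 4.7e-17 under CDK4/6i. Opposite calls under ATRA and CDK4/6i were also made for SRSF8, HNRNPLL, SF3B5 and SF3B6, which makes 5 of the 52 genes (9.62%) against 13.3% of all tested genes. With library size alone, the size factors or the test of DESeq2, a minimum of 10 counts or only the groups compared, the count was again 5 but with SF3B1 in place of SRSF8. It was 2 with no filter, 3 without non-treated replicate 3 or CDK4/6i replicate 1 and 4 without non-treated replicate 1 or ATRA replicate 2, and the rise of HNRNPUL1 under ATRA was not called with no filter (0.10). The ATRA effect was called in opposite directions with and without CDK4/6i for 1 of the 52, HNRNPUL1, against 4.57% of all tested genes, and the CDK4/6i effect with and without ATRA for 0, against 6.74%.

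Other genes of the splicing pathway were described by 7 further lists. Under CDK4/6i+ATRA, 40.7% of all tested genes were called lower and 41.0% higher. Scaled by library size alone, these shares were 48.3% and 32.9%. Of 18 tested genes of the U4/U6.U5 tri-snRNP and the LSm ring, 17 fell and 1 rose under CDK4/6i+ATRA, with a median log2 fold change of -0.75. PPIH, a cyclophilin of the tri-snRNP, went from 61.8 ± 3.71 (SD, n = 3) to 12.3 ± 0.76 CPM (-2.32 ± 0.075 (SE), edgeR's adjusted p 9.5e-32), and SNRNP27, the gene that rose, from 40.7 ± 1.47 to 56.3 ± 2.7 CPM (0.47 ± 0.06 (SE), edgeR's adjusted p 8.1e-10, or 0.20 when scaled by library size alone). All 13 genes of the list drawn up around Sm core assembly fell, with a median of -1.32. GEMIN5, which recognises the snRNA, went from 166 ± 9.41 CPM in non-treated cells to 34.3 ± 3.53 under ATRA, 112 ± 4.26 under CDK4/6i and 13.9 ± 1.80 with both (-3.57 ± 0.071 (SE), edgeR's adjusted p 7.5e-41), the lowest value of the 7 lists.

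The Prp19 complex and the catalytic helicases had 8 of 17 genes lower and 7 higher, against 40.7% and 41.0% of all tested genes, with a median of -0.092. When scaled by library size alone, 10 were lower and 4 higher (median -0.36). Of all tested genes, 48.3% were then lower and 32.9% higher (median -0.25). PRPF19, the ubiquitin ligase of the complex, fell from 398 ± 8.83 to 96.0 ± 4.75 CPM (-2.05 ± 0.041 (SE), edgeR's adjusted p 1e-40), and SLU7, which acts in the second step of splicing, rose from 64.0 ± 0.85 to 120.0 ± 4.09 CPM (0.91 ± 0.048 (SE), edgeR's adjusted p 4.6e-23). Of 6 SR protein kinases and their importer, 2 fell and 4 rose with a median of 0.59, against 40.7% and 41.0% of all tested genes. When scaled by library size alone, 2 fell and 3 rose (median 0.32), against 48.3% and 32.9%. SRPK1, which phosphorylates SR proteins in the cytoplasm, fell from 250.2 ± 1.61 to 133 ± 1.34 CPM (-0.91 ± 0.038 (SE), edgeR's adjusted p 3.8e-27), whereas CLK1, a nuclear kinase of SR proteins, rose from 18.2 ± 1.76 to 36.4 ± 8.19 CPM (0.99 ± 0.1 (SE), edgeR's adjusted p 3.2e-12). CLK1 was also higher under ATRA, at 35.3 ± 0.50 CPM. Under CDK4/6i it stood at 14.7 ± 2.60 CPM, and these libraries (12.2 to 17.4 CPM) overlapped the non-treated ones (16.2 to 19.4 CPM). Its CDK4/6i+ATRA libraries were spread from 28.6 to 44.9 CPM.

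Of the 11 SR-related proteins, 9 fell and 2 rose with a median of -0.44, against 40.7% and 41.0% of all tested genes. When scaled by library size alone, 9 fell and none rose (median -0.70), against 48.3% and 32.9%. The values ran from PNN at -1.16 ± 0.052 (SE) to SCAF11 at 0.31 ± 0.04 (SE), whose rise was not called when scaled by library size alone (0.049). Of 20 further hnRNP-like proteins and splicing regulators, 17 fell and 2 rose with a median of -0.43, against the same 40.7% and 41.0%. When scaled by library size alone, 18 fell and 1 rose (median -0.70), against 48.3% and 32.9%. SYNCRIP, the close relative of HNRNPR, had a log2 fold change of -1.77 ± 0.039 (SE), edgeR's adjusted p 5.2e-39 and PTBP3, a pyrimidine tract binding protein, 0.57 ± 0.042 (SE), edgeR's adjusted p 2.4e-17, or 0.31 when scaled by library size alone. Of 5 genes of the exon junction complex, 4 fell with a median of -0.88, and MAGOHB went from 35.2 ± 1.65 to 5.43 ± 0.23 CPM (-2.69 ± 0.11 (SE), edgeR's adjusted p 8.9e-28). Not tested for low counts were PRPF8, PRPF31, LSM2, DHX16, CLK2, TAF15 and RBFOX2, all 7 of which the table also places on alternate contigs, so their levels were not read from it.

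**Figure D5:**
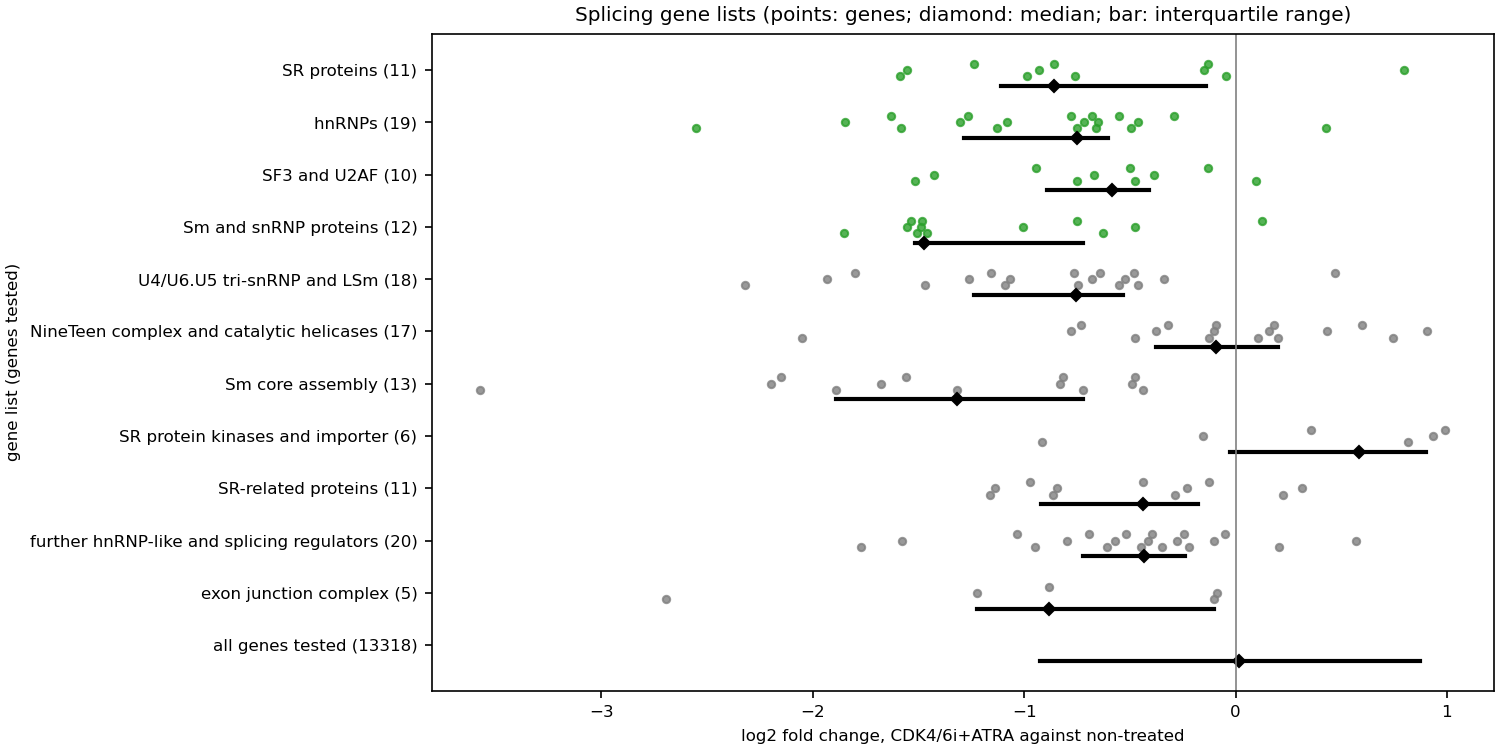
Log2 fold change under CDK4/6i+ATRA against non-treated cells (x axis) of each tested gene (points) in the 4 families (green), the 7 further splicing lists (grey) and, as a summary only, all 13318 tested genes (y axis, with the number of genes tested). Black diamonds and bars give the median and the interquartile range, with medians from -1.47 for the Sm and snRNP proteins to 0.59 for the SR protein kinases, and 0.018 for all tested genes.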

How the data were processed

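RNA-Seq of HL60 cells gave 12 libraries, and the authors deposited raw counts per gene, which are whole numbers without normalization. Per the labels, reads were trimmed with Trimmomatic 0.33 and aligned with STAR 2.7.11a to hg38. The paper names RSEM for the counts, whereas the deposited table, with exon positions and merged exon lengths, has the layout of featureCounts; how reads with several matches were assigned is not given in the sources used here. The members and gene lists were chosen with earlier results of these data known.

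Counts were used as deposited. Genes were filtered with filterByExpr, scaled by TMM and fitted in edgeR 4.0.16 (R 4.3.3) with a model of the 4 groups, 8 residual degrees of freedom, quasi-likelihood F tests and Benjamini-Hochberg adjustment over 13318 genes at a threshold of 0.05. Biological variation, as edgeR's common coefficient, came to 3.7%. Standard errors are the log2 fold change divided by the root of F. Levels per kb divide CPM by the merged exons on primary chromosomes. At these depths, 3 counts are 0.161 to 0.245 CPM before TMM scaling. Libraries of 1 group differed by 1.84 to 6.49 chi-square units per degree of freedom, above sampling noise, and each was kept as a replicate.

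The rule for genes given in every library named 19: in each family the 3 called genes with the largest change and the tested gene with the smallest change with CDK4/6i+ATRA, the 3 highest and lowest interactions, and every gene that rose with CDK4/6i+ATRA. Of the other lists, the largest fall and rise are named. Any other gene, HNRNPUL1 included, was named after its values were seen.

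The alternatives tried were scaling by library size alone or by the size factors of DESeq2, keeping all genes or those with 10 counts or more in each library, testing with DESeq2 1.42.0, a block for the replicate number, fitting only the groups compared, taking members without exon overlap, and leaving out each library. The scripts were tested on simulated counts in which 200 of 12283 genes changed, in the CDK4/6i+ATRA group only. For the interaction, 164 of the 200 were recovered, and 11 of 175 calls were false. With so few changed genes, the simulation cannot test the scaling of data in which most genes are called.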

Additional observations from a re-analysis of the deposited data

Results flagged for a closer look

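In HNRNPUL1, 1 of the 52 tested genes, the effect of ATRA was called in opposite directions with and without CDK4/6i, as it was in 4.57% of all tested genes. Its log2 fold change was 0.12 with ATRA against non-treated cells and -0.23 with CDK4/6i+ATRA against CDK4/6i alone, and the difference between these effects, tested as the interaction, was -0.35 ± 0.053 (SE, edgeR's adjusted p 2e-07). The rise with ATRA was not called with no filter (0.10). The effect of CDK4/6i was not called in opposite directions with and without ATRA in any of the 52 genes, against 6.74% of all tested genes. LOC105372401 on the opposite strand covers 5.8% of the HNRNPUL1 exon bases, with 80 counts in all libraries beside 101518, and its part in the result was not tested.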

How the results depend on the processing

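The counts of genes that fell with either drug or with both stayed within 1.5 times the reported counts under every alternative run for the 5 pairwise comparisons. When scaled by library size alone, the negative interactions went from 27 to 48 and the positive ones from 7 to 0, and the median log2 fold changes with CDK4/6i+ATRA and interactions were -1.13 and -0.41 for SR proteins, -1.02 and -0.42 for hnRNPs, -0.85 and -0.46 for SF3 and U2AF and -1.74 and -0.66 for Sm and snRNP proteins. Among the 19 genes given in every library, this scaling reversed SRSF9 against CDK4/6i (-0.090), SF3B4 against non-treated cells (-0.17) and ATRA (-0.21), SNRPB2 against non-treated cells (-0.14), CDK4/6i (-0.26) and ATRA (-0.26), and the interactions of SRSF9 (-0.12), HNRNPK (-0.30), HNRNPLL (-0.15) and U2AF2 (-0.12).

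Genes that rose with ATRA went from 3 to 5 with library size alone, with the size factors or the test of DESeq2, with 10 counts or more in each library, or with only the groups compared, and to 1 among the 38 genes without exon overlap. Those that rose with CDK4/6i went from 4 to 1 with no filter. Genes that CDK4/6i+ATRA raised above CDK4/6i went from 5 to 3 with library size alone, with no filter or without exon overlap, and those higher than with ATRA from 1 to 2 with at least 10 counts and to 0 without exon overlap. Positive interactions went to 2 with no filter. The cause was not tested except where genes were left out.

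Leaving out 1 library gave 1 to 5 genes that rose with CDK4/6i (1 without non-treated replicate 3, 2 without CDK4/6i replicate 1) and 1 to 2 genes higher with CDK4/6i+ATRA than with ATRA (2 without ATRA replicate 3 or CDK4/6i+ATRA replicate 1). The median with CDK4/6i+ATRA ranged from -0.61 to -0.58 for SF3 and U2AF and from -1.51 to -1.44 for Sm and snRNP proteins, and the hnRNP interaction from -0.18 to -0.074.

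No shared effect of the replicate number was detected, since none of 18 same-numbered pairs correlated above 0.1 (median -0.015). The labels do not say whether same-numbered libraries were handled together. With the replicate number as a block, 47 genes fell and 3 rose with CDK4/6i+ATRA and 27 interactions were negative and 7 positive, as without it, and against CDK4/6i 41 were lower and 4 higher in place of 42 and 5. HNRNPH2 and U2AF1 had too few counts to be tested.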
